A study of Homo sapiens with 12 samples.

Results

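The human lung adenocarcinoma cell line A549 was compared with itself after 2 different lentiviral infections: the WT line received wild-type AHR with an HA tag, and the V line received the empty vector. The members are the 3 WT and the 3 V libraries, 6 of 12 in the series, and every gene that passed a count filter in them, 14772 of 60623 in the table. Both lines carry the vector pLV-EF1a-IRES-Hygro, in which the EF1a promoter drives expression, and both were selected with 200 µg/ml hygromycin for 72 h. The remaining 6 libraries come from A549 lines that carry HA-AHR S489A (SA) or HA-AHR S489D (SD), in which a serine is replaced by alanine or by aspartate. Each group is 1 stable line with 3 biological replicates, and the sources used here do not state whether a line was a pool or a single clone. The spread behind every p value is therefore the spread between cultures of these lines, and an effect of AHR cannot be told apart from any other difference between the 2 infected lines.

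AHR, the aryl hydrocarbon receptor, is a ligand-activated transcription factor that rests in the cytoplasm bound to HSP90. After binding a ligand it enters the nucleus, pairs with ARNT and binds DNA at xenobiotic response elements, whose core is GCGTG. It is best known for inducing the cytochrome P450 enzymes CYP1A1, CYP1A2 and CYP1B1 and the feedback repressors AHRR and TIPARP, and in the lung it responds to components of tobacco smoke.

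The total of expected counts was between 9378152 and 9775608 in the V libraries and between 7844045 and 11376008 in the WT libraries, so that 3 counts corresponded to 0.264 to 0.382 CPM (counts scaled to library size with TMM factors) in single libraries of these lines. The epithelial markers KRT7, KRT8, KRT18 and CDH1 were present throughout, with KRT7 at 1660 ± 76.9 CPM in V and 1640 ± 42.4 CPM in WT (s.d., n = 3), whereas EPCAM (1.46 and 0.724 CPM on average) and KRT19 were near 0. Of 7 blood and immune markers, 6 had no count in the 6 libraries and CD14 made up the sum, which was 11.4 to 13 CPM in V and 14.6 to 16.1 CPM in WT. The 4 endothelial markers summed to 0.316 CPM at most. The 6 fibroblast markers summed to 10.1 to 13.7 CPM in V and 5.97 to 7.57 CPM in WT, nearly all of it COL1A1, while COL1A2 and DCN were at 0. The surfactant genes of alveolar type II cells were at or near 0 in both lines.

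The introduced gene was read first. AHR (ENSG00000106546, chr7:16916359-17346152, GRCh38) had 67.4, 65.8 and 74.3 CPM in the V libraries and 234, 285 and 281 CPM in the WT libraries. The lowest WT library was above the highest V library, and the log2 fold change was 1.95 (SE 0.066, edgeR adjusted p = 1.69e-18). A protein-coding gene model without a symbol, ENSG00000283321 (chr7:17299295-17467234), lies on the same strand and shares 2373 exon bases with AHR, which is 29.5% of the exon bases of AHR and 67.4% of its own. It had no count in the 3 V libraries and 216, 195 and 197 CPM in the 3 WT libraries, at least 645-fold higher than the mean of 3 counts per V library. Because the count tool divides reads between overlapping models, the sum over the AHR locus is the better measure of the gene. This sum was 67.4, 65.8 and 74.3 CPM in V (69.1 ± 4.51, s.d., n = 3) and 450, 480 and 477 CPM in WT (469 ± 16.4), a 6.79-fold difference (log2 fold change 2.76, SE 0.0533, edgeR adjusted p = 7.91e-25). An exact permutation test of the sum, two-sided, gave p = 0.1, the smallest value that 3 against 3 libraries allow. Counts per gene do not separate the endogenous AHR transcript from the introduced one.

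**Figure D1:**
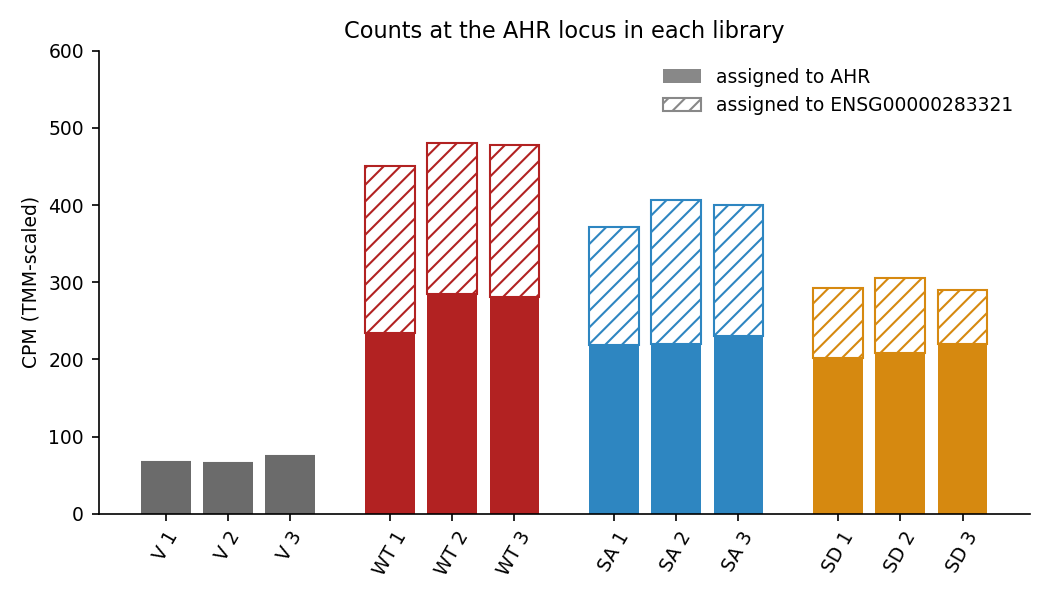
Bars give the CPM (TMM-scaled) at the AHR locus in each of the 12 libraries, with counts assigned to AHR filled and counts assigned to the overlapping model ENSG00000283321 hatched. The 3 V libraries sit between 65.8 and 74.3 CPM with no hatched part, and the 3 WT libraries reach 450 to 480 CPM.

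The SA libraries reached 371, 407 and 400 CPM over the locus and the SD libraries 292, 305 and 290 CPM, so the WT libraries were above all others. For the counts assigned to AHR itself, the difference WT minus SD was 0.34 on the log2 scale (edgeR adjusted p = 0.00774) and the difference WT minus SA was 0.26 (adjusted p = 0.136).

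Across the transcriptome, WT cells differed from V cells in many genes by small amounts. At an adjusted p under 0.05 (edgeR's quasi-likelihood test, Benjamini-Hochberg adjustment over the 14772 genes), 774 genes were called, which is 5.24% of those tested. Of these, 341 were higher in WT (2.31%) and 433 were lower (2.93%). The median size of the log2 fold change of the called genes was 0.363, and over all tested genes the median was 0.0018 with 5% to 95% limits of -0.467 to 0.359. A change of at least 1.5-fold was reached by 196 called genes (1.33%), 65 higher and 131 lower, and a change of at least 2-fold by 25 higher and 47 lower. The 3 libraries of V and the 3 of WT did not overlap in 3230 of all tested genes (21.9%) and in 751 of the 774 called ones. The count depended on single libraries: it was 434 (185 higher, 249 lower) without V replicate 1 and 473 (189 higher, 284 lower) without WT replicate 3.

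**Figure D2:**
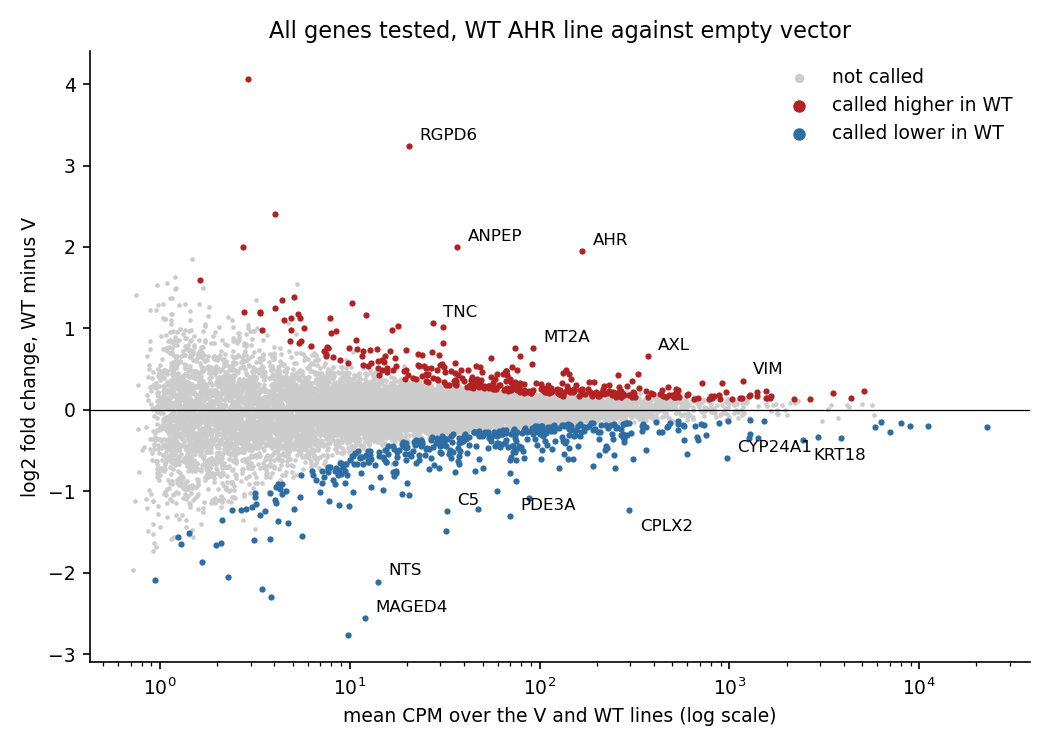
Each point is a tested gene, with its mean CPM over the V and WT libraries on the x axis (log scale) and the log2 fold change, WT minus V, on the y axis. Red points are the 341 genes called higher in WT and blue points the 433 called lower. ENSG00000283321 at the AHR locus, which had no count in V, is left off.

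Known AHR targets moved by small amounts in WT cells. Of 10 targets listed, 6 passed the count filter, with a median log2 fold change of 0.245 against 0.0018 over all genes. Of these 6, 3 were called higher (50%, beside 2.31% of all genes tested) and none was called lower. This list and the lists below were chosen with earlier results of these data known. Their shares therefore describe the data and do not test whether a list changed more than other genes. NQO1, a quinone reductase, had 887, 870 and 900 CPM in V and 996, 1030 and 1050 CPM in WT, without overlap (log2 fold change 0.21, SE 0.0386, edgeR adjusted p = 0.000511). CYP1B1, which oxidizes polycyclic hydrocarbons and estrogens, had 60.5, 59.4 and 67.3 CPM in V and 72.5, 82.3 and 81.6 CPM in WT, again without overlap (0.34, SE 0.0707, adjusted p = 0.00275 by edgeR). TIPARP, an ADP-ribosyltransferase that dampens AHR, had 16.9, 25 and 24.2 CPM in V and 29.7, 29.3 and 35.5 CPM in WT. All WT values of TIPARP were above all V values, the V library with the lowest value was replicate 1 and the WT library with the highest was replicate 3 (log2 fold change 0.51, SE 0.12, edgeR adjusted p = 0.00755). The call of TIPARP was lost without V replicate 1 (adjusted p = 0.103) and without WT replicate 3 (adjusted p = 0.086).

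The other targets were not called, among them CYP1A1 and CYP1A2, which did not pass the count filter. ALDH3A1, an aldehyde dehydrogenase, had 825 ± 24.4 CPM in V and 838 ± 17.6 CPM in WT (s.d., n = 3, edgeR adjusted p = 0.849). CYP2S1, a P450 enzyme of epithelia, had 61 ± 2.95 and 53.7 ± 0.502 CPM (adjusted p = 0.155 by edgeR). AHRR is listed under 2 identifiers whose sum was 21.5, 22.1 and 23.4 CPM in V and 21.7, 27.8 and 27.4 CPM in WT, and neither identifier was called (edgeR adjusted p = 0.207 and 0.746). CYP1A1, the most studied target, had 0.926, 0.212 and 0.631 CPM in V and 0, 0.176 and 0.445 CPM in WT, only a few reads per library, so that a difference was not detectable at this depth. CYP1A2 had no count in any library of either line.

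The DNA upstream of 4 of these genes is shown because it holds the core of the element that AHR binds: CYP1A1 as the classical target, TIPARP as a target that was called, and ANPEP and MT2A as genes with 2 of the clearest rises described below. Each sequence is the 250 bases before a RefSeq transcription start (GRCh38.p14), 5′ to 3′ on the strand of the gene, with GCGTG, or CACGC where it lies on the other strand, in capitals.
CYP1A1 (chr15:74725529-74725778, minus strand): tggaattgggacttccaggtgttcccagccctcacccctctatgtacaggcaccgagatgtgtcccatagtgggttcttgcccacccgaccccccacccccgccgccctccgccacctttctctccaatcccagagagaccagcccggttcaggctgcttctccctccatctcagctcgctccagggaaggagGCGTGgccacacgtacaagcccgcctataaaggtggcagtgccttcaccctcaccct
TIPARP (chr3:156674340-156674589, plus strand): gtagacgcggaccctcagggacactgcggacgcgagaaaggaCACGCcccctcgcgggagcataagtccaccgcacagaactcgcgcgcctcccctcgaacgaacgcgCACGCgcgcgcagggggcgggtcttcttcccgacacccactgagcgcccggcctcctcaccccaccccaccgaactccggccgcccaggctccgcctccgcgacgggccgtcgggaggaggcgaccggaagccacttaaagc
ANPEP (chr15:89806629-89806878, minus strand): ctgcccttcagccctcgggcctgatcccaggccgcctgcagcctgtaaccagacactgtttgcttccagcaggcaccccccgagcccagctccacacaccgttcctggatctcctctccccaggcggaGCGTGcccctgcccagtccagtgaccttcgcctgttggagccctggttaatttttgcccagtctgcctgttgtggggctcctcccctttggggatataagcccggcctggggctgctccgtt
MT2A (chr16:56608334-56608583, plus strand): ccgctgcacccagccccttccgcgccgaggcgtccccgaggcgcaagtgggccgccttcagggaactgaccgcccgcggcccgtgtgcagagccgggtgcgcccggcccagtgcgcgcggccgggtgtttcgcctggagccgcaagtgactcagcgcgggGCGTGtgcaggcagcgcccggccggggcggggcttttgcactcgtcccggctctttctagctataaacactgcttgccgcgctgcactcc
The core begins 57 bases before the start in CYP1A1, 208 and 142 bases before it in TIPARP, 122 in ANPEP and 90 in MT2A. A further start of ANPEP (chr15:89814853-89815102, minus strand) and 2 further starts of TIPARP have no GCGTG on either strand in their 250 bases. These 5 letters are common: GCGTG on either strand is in 31.9% of 27305 RefSeq promoters and in 45.8% of the 10441 matched to genes tested here, and the longer TNGCGTG in 4.53% and 6.09%. The same window of NQO1, CPLX2, NTS, PDE3A, TNC and CPA4 holds no GCGTG on either strand. RefSeq promoters were matched for 76.8% of the genes called higher, 66.7% of those called lower and 70.7% of all genes tested. Among the matched promoters, GCGTG was in 43.5% of 262 for genes called higher and in 43.6% of 289 for genes called lower. For TNGCGTG these shares were 5.34% and 4.84%. None of them was above the share of all genes tested. The shares were not tested, and genes without a matched promoter are left out of them.

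Among the partners of AHR, ARNT had 39.6 ± 2.89 CPM in V and 40.4 ± 2.18 CPM in WT (s.d., n = 3, edgeR adjusted p = 0.915). Of the 14 partners and chaperones tested, CUL4B, the scaffold of a ubiquitin ligase that AHR can join, rose from 126 to 148 CPM (edgeR adjusted p = 0.0112), HSP90AA1, the inducible form of HSP90, rose from 2520 to 2780 CPM (adjusted p = 0.0176 by edgeR), and NCOA3, a coactivator, fell from 271 to 232 CPM (edgeR adjusted p = 0.00264). The 2 rises were both lost without V replicate 1, V replicate 2 or WT replicate 2, each leaving 0 of the list called higher, and 1 of them without WT replicate 3. With all 12 libraries in one fit, HSP90AA1 was not called (edgeR adjusted p = 0.102). PLK1, the kinase that the study sets upstream of AHR, had 177 ± 2.5 and 178 ± 3.86 CPM (edgeR adjusted p = 0.962), and DIO2, the deiodinase that activates thyroid hormone, 16.9 ± 1.46 and 15.5 ± 0.752 CPM (adjusted p = 0.689 by edgeR). None of the 8 tested genes of the kynurenine pathway, which makes AHR ligands from tryptophan, was called by edgeR's quasi-likelihood test, DESeq2 or edgeR's exact test. In the first of these tests, 1 of the 8 had an unadjusted p under 0.05, as did 2570 of all 14772 genes tested. With 5.24% of all genes tested called, a count of 0 of 8 is near the background.

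Apart from the AHR locus, ANPEP showed the clearest rise. ANPEP encodes aminopeptidase N (CD13), a membrane enzyme that trims peptides outside the cell. Its values were 14.7, 15.4 and 13.8 CPM in V and 63, 54.7 and 58.7 CPM in WT, with the lowest WT library far above the highest V library (log2 fold change 2.00, SE 0.0938, edgeR adjusted p = 4.41e-15). It was the only gene called among 9 tested membrane peptidase genes, beside 5.24% of all genes tested. MT2A, a metallothionein that binds zinc and copper, had 67.8, 70.6 and 66.7 CPM in V and 117, 110 and 120 CPM in WT (0.76, SE 0.0606, edgeR adjusted p = 7.32e-10), and metallothionein genes are near copies that can share reads. AXL, a receptor tyrosine kinase, had 285, 295 and 284 CPM in V and 482, 438 and 442 CPM in WT (0.66, SE 0.0455, adjusted p = 3.68e-11 by edgeR). The libraries of the lines did not overlap for either of them.

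TNC, the matrix glycoprotein tenascin C, had 17.5, 17.8 and 17.5 CPM in V and 39, 39 and 32.6 CPM in WT, a rise in every WT library (log2 fold change 1.07, SE 0.101, edgeR adjusted p = 1.85e-08). CPA4, a carboxypeptidase, had 13.8, 11.8 and 9.68 CPM in V and 24.3, 23.3 and 24.4 CPM in WT (1.03, SE 0.127, edgeR adjusted p = 2.34e-06). CRISPLD2, a secreted protein of the lung mesenchyme, had 5.76, 5.31 and 6.52 CPM in V and 17.3, 11.8 and 14.9 CPM in WT (1.31, SE 0.178, adjusted p = 9.77e-06 by edgeR). In each of the 3 genes the V and WT libraries were separate. MMP2, a gelatinase that cuts basement membrane collagen, had 7.51, 6.58 and 8.42 CPM in V and 18.4, 15 and 17.4 CPM in WT (edgeR adjusted p = 6.23e-06). COL13A1, a membrane collagen, had 4.94, 4.88 and 4.94 CPM in V and 10.9, 10 and 11.6 CPM in WT (adjusted p = 0.000159 by edgeR). IFI16, a sensor of nuclear DNA, had 2.06, 2.55 and 2.84 CPM in V and 5.46, 6.14 and 7.35 CPM in WT (edgeR adjusted p = 0.00119). All 3 were also without overlap, and IFI16 was the lowest of them in counts. Other rises among the 15 largest were PLEK2, a regulator of actin, from 2.37 to 5.68 CPM, DMBT1, a mucosal scavenger protein, from 2.83 to 6.14 CPM, and SLC12A8, a transporter, from 3.43 to 7.45 CPM. The calls of SNCG, which encodes gamma-synuclein (3.25 to 7.44 CPM), and GALNT9, a mucin-type glycosyltransferase (3.08 to 6.76 CPM), depended on single libraries: SNCG had an edgeR adjusted p of 0.083 without WT replicate 1, and GALNT9 one of 0.107 without V replicate 1, 0.0647 without V replicate 3 and 0.0972 without WT replicate 3.

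Falls of at least 2-fold outnumbered rises of that size, 47 to 25. CPLX2, complexin 2, which controls vesicle fusion at synapses, had 450, 395 and 405 CPM in V and 166, 176 and 188 CPM in WT, and no WT library came near the V libraries (log2 fold change -1.24, SE 0.0529, edgeR adjusted p = 5.38e-16). NTS, the precursor of the peptide neurotensin, had 21.8, 21.3 and 25.7 CPM in V and 5.46, 5.62 and 4.79 CPM in WT (-2.11, SE 0.148, edgeR adjusted p = 4.46e-11). PDE3A, a phosphodiesterase that breaks down cyclic AMP, had 94.3, 99 and 105 CPM in V and 35.4, 47.7 and 36.2 CPM in WT (-1.31, SE 0.0846, adjusted p = 9.58e-12 by edgeR). WT replicate 2 was the highest WT library for PDE3A and still well under the V libraries. SVEP1, a large secreted adhesion protein, had 68.7, 63.7 and 66.7 CPM in V and 27.9, 28.5 and 28.8 CPM in WT (-1.22, SE 0.0778, edgeR adjusted p = 7.09e-12). RTN4RL2, a Nogo receptor homolog, had 121, 127 and 112 CPM in V and 54.1, 53.6 and 62.5 CPM in WT (-1.08, SE 0.0687, adjusted p = 7.09e-12 by edgeR). CYP24A1, the enzyme that inactivates vitamin D, had 1190, 1120 and 1190 CPM in V and 749, 798 and 762 CPM in WT (-0.60, SE 0.0401, edgeR adjusted p = 1.87e-11). The groups were separate for all 3.

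Further falls were found in low-count genes. HLA-DMB, a chaperone of MHC class II loading, fell from 5.65 ± 0.559 to 1.25 ± 0.388 CPM (s.d., n = 3, log2 fold change -2.20, edgeR adjusted p = 2.49e-05). SERPINI1, which encodes neuroserpin, fell from 5.73 ± 0.785 to 1.88 ± 0.276 CPM (adjusted p = 0.000423 by edgeR). H19, an imprinted noncoding RNA, fell from 6.04 ± 0.399 to 2.33 ± 0.812 CPM (edgeR adjusted p = 0.00194). VGLL3, a cofactor of TEAD factors, fell from 12.1 to 5.35 CPM, and HAS2, which makes hyaluronan, from 7.19 to 3.01 CPM. Of the noncoding RNAs, LINC02582 fell from 8.34 to 2.83 CPM, while LINC00319 (6.9 to 2.58 CPM) lost its call without V replicate 3 (edgeR adjusted p = 0.0537).

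**Figure D3:**
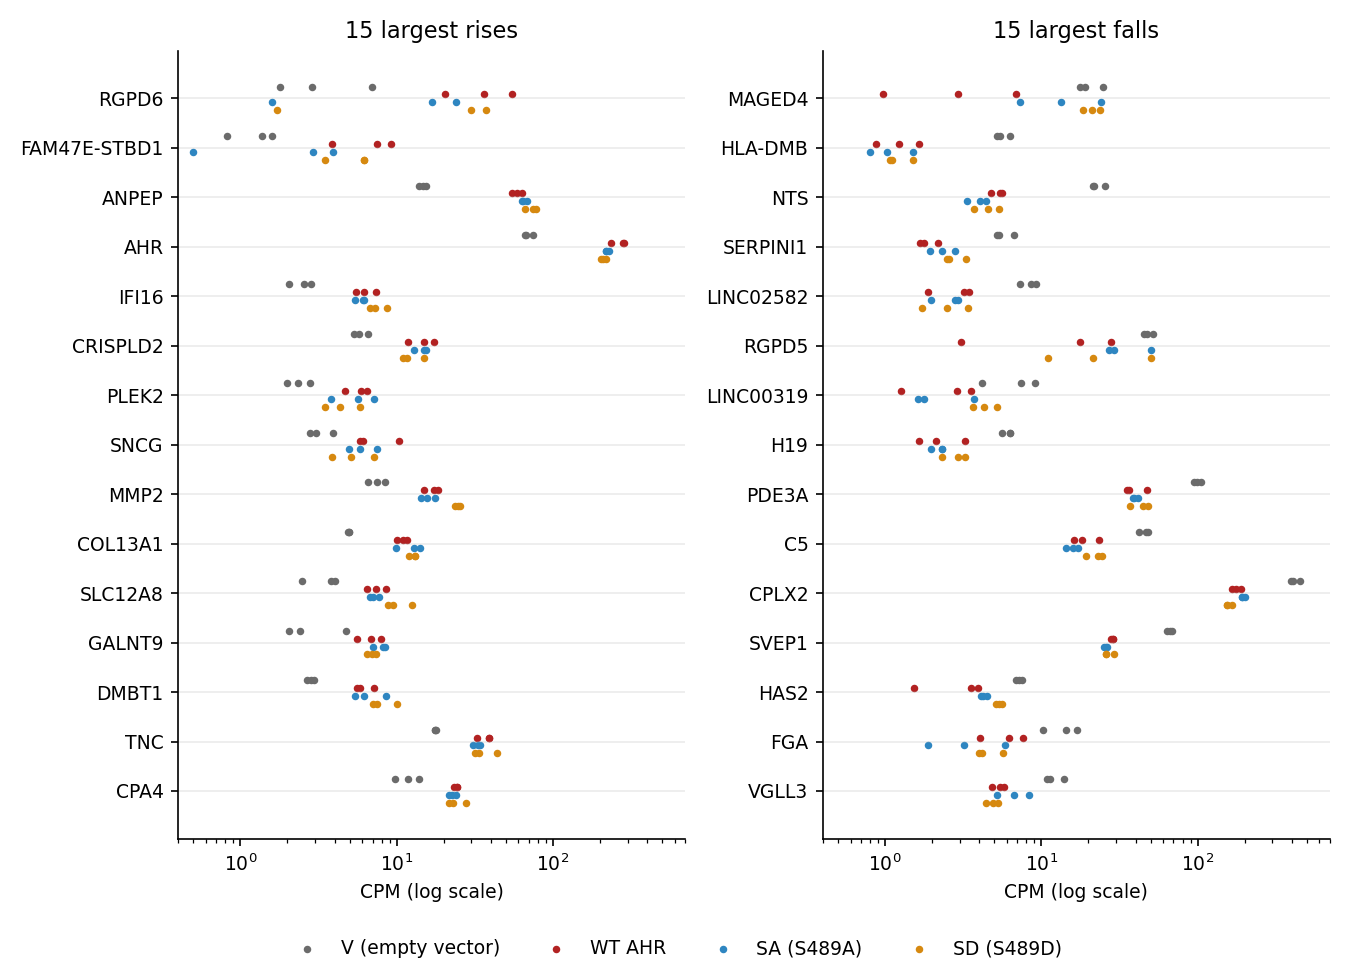
CPM (log scale) of the 15 largest rises and 15 largest falls in each of the 12 libraries, among called genes with a symbol, no overlap between the V and WT libraries and a mean of at least 5 CPM in the higher line, with 3 points per line and values under 0.5 drawn at 0.5. For every gene shown, the red WT points lie on 1 side of all grey V points. SA and SD are shown for comparison and played no part in choosing the genes.

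For 5 of the 30 genes in this plot, reads are shared with another gene model or a near copy. RGPD6 had 2.88, 6.9 and 1.79 CPM in V and 54.5, 20.5 and 36.2 CPM in WT, while its near copy RGPD5 had 47.6, 45.2 and 51.9 CPM in V and 3.05, 27.9 and 17.6 CPM in WT, and RGPD5 was not called by DESeq2 (adjusted p = 0.372). Their sum was 52.1 ± 1.58 CPM in V and 53.3 ± 4.58 CPM in WT (s.d., n = 3), so that the pair as a sum moved by less than the spread between replicates. MAGED4 fell from 20.4 to 3.6 CPM, and with its near copy MAGED4B the sum was 42, 39.4 and 38.9 CPM in V and 24.8, 27.7 and 26.6 CPM in WT, lower in all 3 WT libraries. The read-through gene FAM47E-STBD1 rose from 1.26 to 6.82 CPM, and with STBD1, whose exons it shares, the sum was 13 ± 2.7 CPM in V and 16.7 ± 1.54 CPM in WT. These genes are uncertain as single genes, as is AHR beside ENSG00000283321. Among the genes named in the text, NQO1, CYP1B1, RTN4RL2, DKK1, CXCL5, KRT18, VIM, ITGA4, PLAU, CFD, PAPPA, ALDH1A3 and HMGCS1 have between 10.2% (DKK1) and 37.7% (HMGCS1) of their exon bases opposite a gene on the other strand. The strand of the libraries is not given in the sources used here, so reads of such pairs may not have been told apart.

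Among genes of epithelial junctions and keratins, the calls were falls. Of 25 epithelial genes tested, 6 were called lower and none higher (median log2 fold change -0.0512), 24% of the list beside 2.93% of all genes tested called lower. CDH1, E-cadherin, had 179, 169 and 160 CPM in V and 116, 112 and 108 CPM in WT (-0.60, SE 0.0543, edgeR adjusted p = 7.74e-09). JUP, the junction protein plakoglobin, had 156, 156 and 162 CPM in V and 89.1, 93.1 and 106 CPM in WT (-0.72, SE 0.0589, adjusted p = 1.17e-09 by edgeR). Both were without overlap between the lines. The keratin KRT7 had 1660 ± 76.9 and 1640 ± 42.4 CPM (edgeR adjusted p = 0.876). KRT18 fell from 2750, 2800 and 2650 CPM to 2100, 2120 and 2140 CPM (-0.37, edgeR adjusted p = 3.25e-08) and KRT8 fell from 3240, 3330 and 3230 CPM to 2610, 2590 and 2610 CPM (-0.33, edgeR adjusted p = 1.21e-07). KRT8 and KRT18 overlap in 525 exon bases on opposite strands and have processed copies elsewhere. The calls of CLDN1, a tight junction protein, and PKP2, a desmosome protein, were lost without some single libraries, CLDN1 without V replicate 3 (edgeR adjusted p = 0.113), WT replicate 1 (0.0622) or WT replicate 3 (0.0649), and PKP2 without V replicate 1 (0.0701) or WT replicate 3 (0.0691). In a bulk culture, fewer cells that express a gene and less of its RNA per cell cannot be told apart.

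Of 25 mesenchymal genes tested, 5 were called higher (AXL, VIM, COL6A1, COL6A2 and MMP2), COL1A1 was called lower, and the median was 0.102. Over all genes tested, 2.31% were called higher and 2.93% lower. VIM, the intermediate filament vimentin, had 1010, 1070 and 1010 CPM in V and 1310, 1280 and 1370 CPM in WT, without overlap (log2 fold change 0.36, SE 0.0397, edgeR adjusted p = 3.7e-07). VIM shares 656 exon bases with VIM-AS1 on the opposite strand, and the sum of both was 1250 ± 40.4 CPM in V and 1620 ± 75.7 CPM in WT (s.d., n = 3). COL6A1 and COL6A2, neighboring genes for chains of collagen VI, rose from 73.4 ± 3.16 to 109 ± 13 CPM (edgeR adjusted p = 2.5e-06) and from 58.8 ± 0.889 to 84.5 ± 4.11 CPM (edgeR adjusted p = 2.93e-06). COL1A1, which also made up the fibroblast marker sum, fell from 11.4 to 6.55 CPM, a call lost without V replicate 1 (edgeR adjusted p = 0.0728). CDH2, N-cadherin, had 35 ± 2.59 and 34.4 ± 3.05 CPM (edgeR adjusted p = 0.909), and the transcription factors ZEB1 (28.6 ± 3.16 and 29.2 ± 1.23 CPM, edgeR adjusted p = 0.915) and SNAI2 (1.89 ± 0.567 and 3.9 ± 0.19 CPM, edgeR adjusted p = 0.0564) were not called either.

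Among the receptors that hold cells to the matrix, the calls were rises. Of 23 integrin and laminin genes tested, 7 were called higher and none lower (median log2 fold change 0.0629), 30.4% of the list beside 2.31% of all genes tested called higher. ITGA3, a laminin receptor chain, rose from 813 ± 17.7 to 1020 ± 74.5 CPM (edgeR adjusted p = 1.12e-05). ITGB3, a chain of the vitronectin receptor, rose from 14.9 ± 2.25 to 24.8 ± 2.14 CPM (adjusted p = 0.000173 by edgeR). ITGA4, which binds fibronectin and VCAM1, rose from 8.17 ± 0.513 to 13.7 ± 1.26 CPM (edgeR adjusted p = 0.00281). The laminin chain LAMB3 rose from 20.1 ± 0.608 to 29.3 ± 1.32 CPM (edgeR adjusted p = 0.000704), and the collagen receptor chain ITGA2 from 69.5 ± 6.38 to 87.3 ± 6.22 CPM (edgeR adjusted p = 0.00377). ITGB4, at 402 ± 11 and 460 ± 21.3 CPM, was not called without WT replicate 1 (edgeR adjusted p = 0.0618) or with all 12 libraries in one fit (0.0561).

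Matrix genes moved both ways. Of 33 collagens and other matrix genes tested, 8 were called higher and 9 lower (median log2 fold change 0.0258), beside 2.31% and 2.93% of all genes tested. Beside TNC, COL13A1 and the collagen VI chains, which rose, FBN2, a fibrillin of elastic fibers, fell from 62.5 ± 3.26 to 37.9 ± 4.12 CPM (log2 fold change -0.72, edgeR adjusted p = 6.62e-07) and COL5A2, a chain of collagen V, fell from 303 ± 9.52 to 247 ± 11.4 CPM (edgeR adjusted p = 8.51e-05). The number of falls depended on single libraries, with 3 called lower without V replicate 1, 4 without WT replicate 3 and 5 without WT replicate 2. Of 19 metalloproteinases and inhibitors, 5 were called higher, among them MMP2 and the membrane proteases ADAM12 (39.9 ± 1.42 to 57.4 ± 2.76 CPM, edgeR adjusted p = 2.62e-05) and ADAM19 (25.5 ± 2.64 to 36.9 ± 2.75 CPM, edgeR adjusted p = 0.000609), and 3 were called lower. Without WT replicate 3 these counts were 3 and 1. SERPINE2, an inhibitor of thrombin and plasminogen activators, had 55.5, 50.3 and 60.1 CPM in V and 89.1, 96.6 and 95.5 CPM in WT (0.76, SE 0.0699, edgeR adjusted p = 9.99e-09). PLAU, the plasminogen activator urokinase, rose from 125 ± 1.15 to 153 ± 3.61 CPM (edgeR adjusted p = 0.000374).

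**Figure D4:**
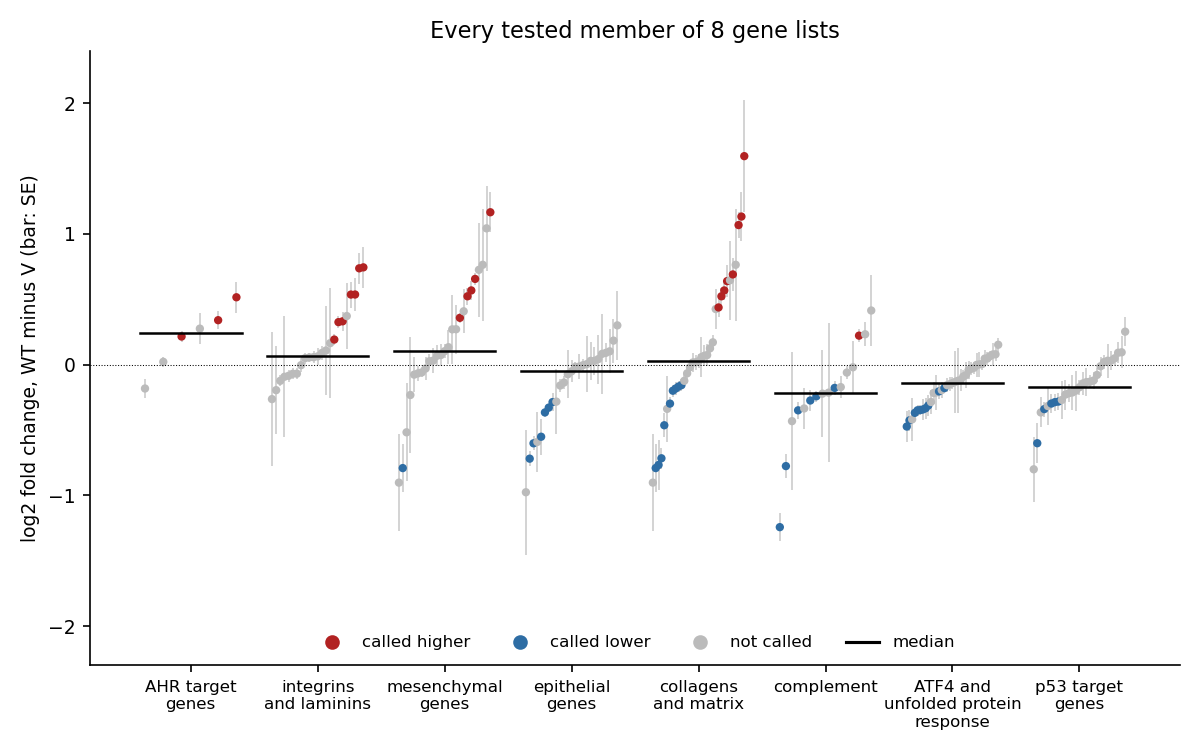
Log2 fold change, WT minus V, of every tested member of 8 gene lists, with the SE as a bar and the median of each list as a horizontal line. Red points were called higher, blue points lower and grey points were not called, and the 7 called integrin and laminin genes all lie above 0 while the 6 called epithelial genes all lie below it.

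In the complement system more genes were called lower than higher. Of 16 tested, 6 were called lower and 1 higher (median log2 fold change -0.218), 43.8% of the list in either direction beside 5.24% of all genes tested. C5, the precursor of the anaphylatoxin C5a, had 46.5, 42.3 and 48.3 CPM in V and 16.1, 18.3 and 23.4 CPM in WT, without overlap (-1.24, SE 0.106, edgeR adjusted p = 2.61e-09). CLU, the chaperone clusterin, fell by 0.24 on the log2 scale from 578 ± 34.1 CPM in V (edgeR adjusted p = 0.000551), and CD55, which protects cells from complement, from 83.2 ± 3.28 to 65.3 ± 1.54 CPM (edgeR adjusted p = 0.000668). The member that rose was CD59, another protector of the cell surface, from 134 ± 3.23 to 156 ± 5.28 CPM (edgeR adjusted p = 0.00684). C3, the central component, had 202 ± 12.1 and 194 ± 6.08 CPM (edgeR adjusted p = 0.597). The number called lower was 4 without V replicate 1 and without WT replicate 3. CFD, factor D, at 58 and 48.2 CPM, was among the calls lost (edgeR adjusted p = 0.296 without V replicate 1, 0.208 without WT replicate 2, 0.099 without WT replicate 3 and 0.144 with all 12 libraries in one fit, and 0.0883 by DESeq2).

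Of 8 tested genes for acute phase and other hepatocyte-type secreted proteins, 3 were called lower and none higher (median log2 fold change -0.943), 37.5% of the list beside 2.93% of all genes tested called lower. FGA, the alpha chain of fibrinogen, had 16.9, 10.3 and 14.3 CPM in V and 4.07, 7.63 and 6.23 CPM in WT (-1.18, SE 0.201, edgeR adjusted p = 0.000266). FGL1, a fibrinogen-like protein, fell from 19.8 ± 1.28 to 10.1 ± 0.322 CPM (-0.98, edgeR adjusted p = 6.75e-06). The V and WT libraries were separate for both. FGG, the gamma chain, was called as well but not without V replicate 1 (edgeR adjusted p = 0.16), WT replicate 1 (0.0651) or WT replicate 3 (0.0547).

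Of 9 prostaglandin genes tested, 2 were called lower and 2 higher (median log2 fold change 0.0625), beside 2.93% and 2.31% of all genes tested. PLA2G4A, the phospholipase that releases arachidonic acid, had 108, 86.5 and 97 CPM in V and 52.3, 56.6 and 50.2 CPM in WT (-0.87, SE 0.0756, edgeR adjusted p = 3.99e-09). PTGS2, cyclooxygenase 2, which turns arachidonic acid into prostaglandin H, had 167, 147 and 164 CPM in V and 97.6, 120 and 110 CPM in WT (-0.54, SE 0.0634, edgeR adjusted p = 9.35e-07). The 2 called higher were PTGES and PTGR1, and PTGES lost the call without V replicate 1 (edgeR adjusted p = 0.0861) or WT replicate 3 (0.0802) and with all 12 libraries in one fit (0.0574). CXCL5, a chemokine for neutrophils, had 292, 281 and 303 CPM in V and 182, 212 and 202 CPM in WT (-0.55, SE 0.052, edgeR adjusted p = 1.73e-08), and it was the only call of 8 tested chemokines. None of 18 tested NF-kB subunits and feedback targets was called by edgeR's quasi-likelihood test, DESeq2 or edgeR's exact test. With the quasi-likelihood test, 5.24% of all genes tested were called. An unadjusted p under 0.05 in that test was found for 5 of the 18, and for 2570 of all 14772 genes tested. GDF15, a stress cytokine of the TGF-beta family, had 95.9, 99.8 and 101 CPM in V and 65.9, 64.8 and 65.9 CPM in WT (-0.60, SE 0.0613, edgeR adjusted p = 8.91e-08). For all of these named falls the WT libraries were below every V library.

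Of 35 genes of the ATF4 and unfolded protein response, 10 were called lower and none higher (median log2 fold change -0.141), 28.6% of the list beside 2.93% of all genes tested called lower. The endoplasmic reticulum chaperones PDIA4 (645 ± 11.6 to 500 ± 8.51 CPM, edgeR adjusted p = 2.32e-07), HSP90B1 (1580 ± 47.3 to 1240 ± 61.4 CPM, edgeR adjusted p = 6.75e-07) and HSPA5 (1420 ± 36 to 1120 ± 68.7 CPM, edgeR adjusted p = 1.23e-06) fell by 0.35 to 0.37 on the log2 scale, with no overlap between libraries. ATF4 itself had 192 ± 7.99 and 198 ± 4.77 CPM (edgeR adjusted p = 0.696) and DDIT3, the stress factor CHOP, 5.54 ± 0.849 and 5.1 ± 1.14 CPM (edgeR adjusted p = 0.842). The number called lower was 4 without V replicate 1. HMOX1, the heme oxygenase of the NRF2 response, fell from 136 ± 1.64 to 97.5 ± 4.21 CPM (edgeR adjusted p = 4.98e-07) while FTL, the ferritin light chain, rose from 4690 ± 139 to 5490 ± 363 CPM (edgeR adjusted p = 0.000413). In all, 3 of 34 tested NRF2 genes were called higher, NQO1 among them, and 4 lower, beside 2.31% and 2.93% of all genes tested.

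Of 27 p53 target genes, 5 were called lower and none higher (median log2 fold change -0.173), 18.5% of the list beside 2.93% of all genes tested called lower. CDKN1A, the cell cycle inhibitor p21, had 143, 152 and 147 CPM in V and 108, 114 and 126 CPM in WT, without overlap (-0.34, SE 0.0572, edgeR adjusted p = 0.000217). The 4 others, MDM2, DDB2, RRM2B and BTG2, each lost the call without at least 1 library, and the count was 3 without V replicate 3 or WT replicate 1 and 1 without WT replicate 3. Cell cycle genes were called at about the share of all genes tested, 5.24%. RRM2 of 37 DNA replication genes was higher, a call lost without V replicate 1, V replicate 3, WT replicate 1 or WT replicate 3, and CDC20 and CDC25B of 37 mitosis genes were higher, with none left without V replicate 1, and with CDC25B not called with all 12 libraries in one fit (edgeR adjusted p = 0.052).

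Among signaling genes, FOSL1, the AP-1 subunit FRA1, had 21.6, 24.3 and 21.5 CPM in V and 38.7, 42.3 and 38 CPM in WT (0.82, SE 0.093, edgeR adjusted p = 4.61e-07), and its partner JUN had 30.9, 29.3 and 25.6 CPM in V and 50.9, 35.5 and 42.9 CPM in WT (0.58, SE 0.107, adjusted p = 0.000716 by edgeR). Both were separate between lines, and WT replicate 2 was the lowest WT library for JUN. In the AP-1 list, 4 of 22 tested genes were called higher and 2 lower, beside 2.31% and 2.93% of all genes tested. These counts were 2 and 1 without WT replicate 2 or WT replicate 3. Without V replicate 2 or V replicate 3 they were 3 and 0. The EGFR family ligands EREG (115 ± 2.56 to 161 ± 9.79 CPM, edgeR adjusted p = 2.76e-07) and NRG1 (113 ± 0.659 to 135 ± 3.65 CPM, edgeR adjusted p = 0.00249) rose, the only calls of 13 tested genes of that family. The TGF-beta receptor gene TGFBR2 rose from 171 ± 4.03 to 217 ± 6.9 CPM (edgeR adjusted p = 1.49e-05).

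In the Wnt pathway, 2 of 30 tested genes were called higher and 5 lower, beside 2.31% and 2.93% of all genes tested. DKK1, a secreted inhibitor of Wnt receptors, had 316, 293 and 314 CPM in V and 187, 194 and 181 CPM in WT, without overlap (-0.71, SE 0.0477, edgeR adjusted p = 1.71e-11). RNF43, a ubiquitin ligase that removes Wnt receptors, had 32.9, 24.2 and 25.7 CPM in V and 11.9, 13.2 and 15 CPM in WT (-1.04, SE 0.127, edgeR adjusted p = 1.71e-06), and the receptor gene FZD8 fell from 23.2 ± 1.71 to 15.9 ± 0.535 CPM (edgeR adjusted p = 0.00241). SFRP1, another secreted Wnt inhibitor, moved the other way, from 63.6 ± 4.9 to 89.2 ± 1.01 CPM (edgeR adjusted p = 1e-05). The number called lower was 3 without V replicate 1 or WT replicate 1. Of 21 YAP and TEAD targets, AXL, CCN1 (60.2 ± 4.52 to 78.7 ± 8.13 CPM, edgeR adjusted p = 0.00219) and CCN2 were called higher, CCN2 not without V replicate 3 (edgeR adjusted p = 0.069).

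Among metabolic genes, the glycolysis enzymes PKM (3290, 3250 and 3280 CPM in V, 3850, 3730 and 3800 CPM in WT, edgeR adjusted p = 0.000123) and LDHA (1210, 1160 and 1230 CPM in V, 1340, 1390 and 1360 CPM in WT, edgeR adjusted p = 0.00263) rose slightly, by 0.21 and 0.18 on the log2 scale, with no overlap. Of 37 hypoxia and glycolysis genes, 5 were called higher and 2 lower, beside 2.31% and 2.93% of all genes tested. These counts were only 2 and 1 without V replicate 1 and 3 and 1 without WT replicate 3. CA12, a carbonic anhydrase, fell from 775 ± 38.1 to 598 ± 9.51 CPM (edgeR adjusted p = 3.88e-07). Of 25 drug metabolism genes, 4 were called lower, CYP24A1, ALDH1A1, SULT2B1 and CYP4F3, and ALDH1A3 was called higher, though not without WT replicate 3 (edgeR adjusted p = 0.0663). ALDH1A1, a retinaldehyde dehydrogenase, had 4340, 4240 and 4380 CPM in V and 3260, 3520 and 3420 CPM in WT, without overlap (-0.34, SE 0.0356, edgeR adjusted p = 9.95e-08). SULT2B1, a cholesterol sulfotransferase, fell from 14 ± 2.18 to 6.89 ± 1.05 CPM (edgeR adjusted p = 0.000256).

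The counts of further lists are read beside 2.31% of all genes tested called higher and 2.93% called lower. Of 33 interferon-stimulated genes, 3 were called higher and 1 lower, among the rises IFIT3, an interferon-induced antiviral protein, from 3.77 ± 0.414 to 7.63 ± 1.12 CPM (edgeR adjusted p = 0.0058). In the IGF axis, 3 of 15 genes were called higher and 4 lower, among the rises STC2, a secreted glycoprotein, from 54.2 ± 1.7 to 73.5 ± 4.33 CPM (edgeR adjusted p = 0.000104), and without V replicate 1 these counts were 2 and 2. Of 30 TGF-beta and BMP genes, 3 were called higher and 4 lower, or 1 and 4 without V replicate 1 or WT replicate 1. Among 17 lung and endoderm lineage genes 1 was called higher and 2 lower, and none without V replicate 1. For 19 heat shock proteins the counts were 1 and 2, with HSPA2 falling from 90.5 ± 5.09 to 58.9 ± 4.43 CPM (edgeR adjusted p = 4.01e-07). A single call, lower in WT, was made in each of 3 lists: 24 sterol synthesis genes, 19 amino acid transporters and 12 genes of the IL-6 family. The sterol call, HMGCS1, and the IL-6 family call, LIF, were lost whichever of the 6 libraries was left out. The amino acid transporter SLC7A2 kept its call with each library left out. Of 20 fatty acid synthesis genes 2 were called lower, and none without V replicate 1 or WT replicate 3.

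**Figure D5:**
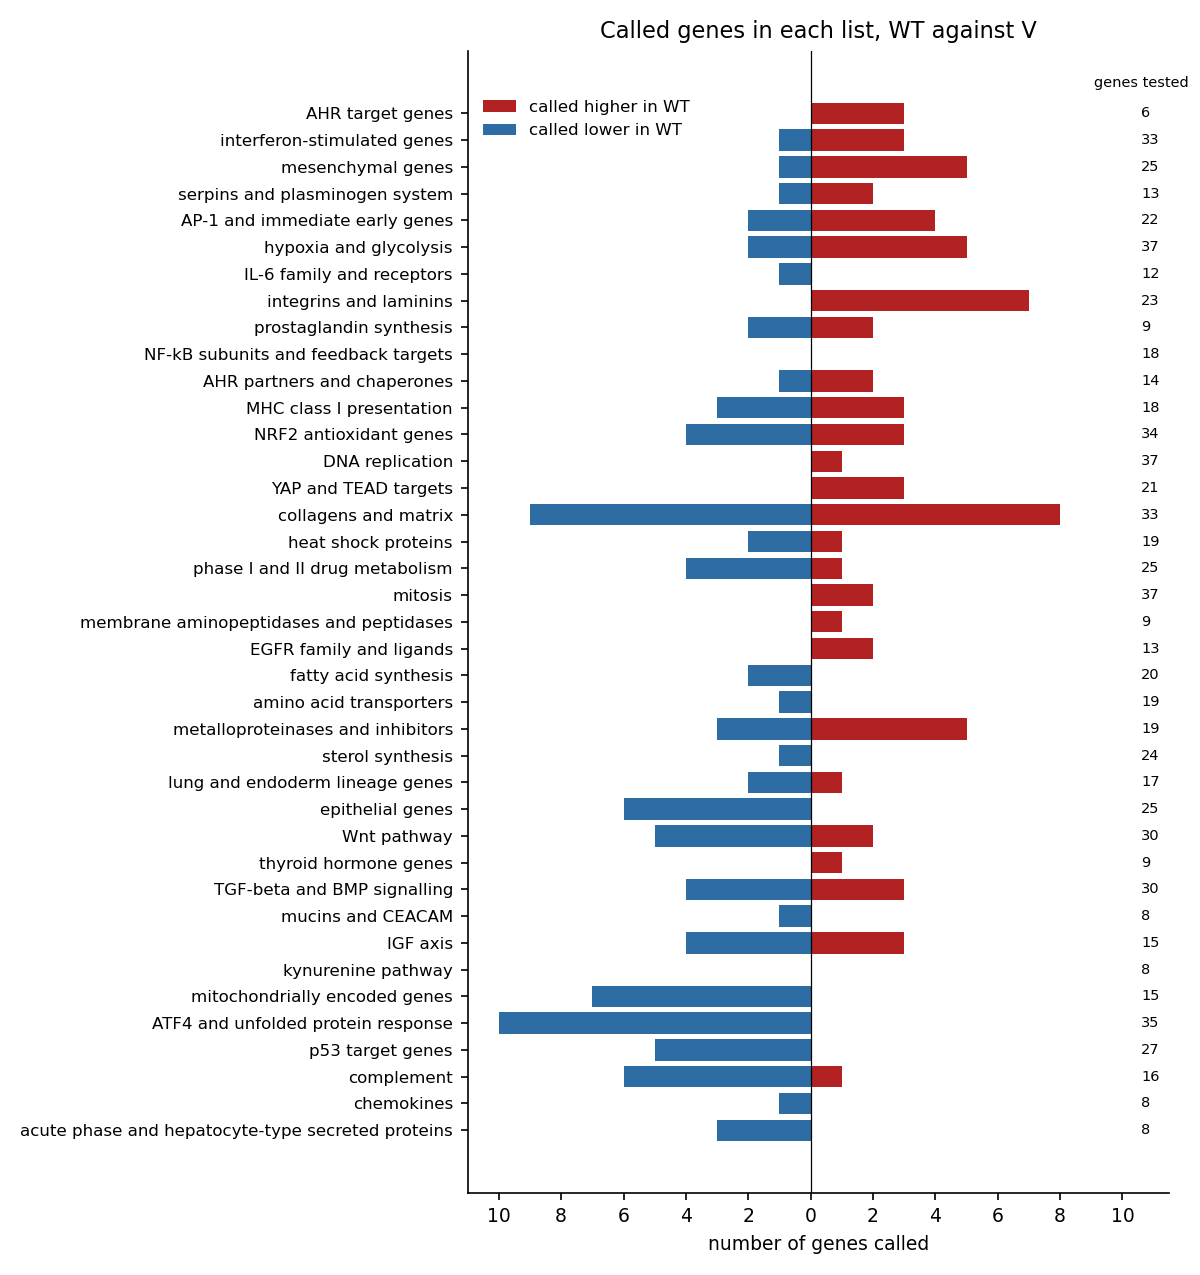
Number of genes called higher (red, to the right) and lower (blue, to the left) in WT for each of 39 gene lists, ordered from the highest median log2 fold change at the top to the lowest at the bottom, with the number of genes tested at the right. The AHR targets are at the top with 3 higher of 6, and the acute phase genes at the bottom with 3 lower of 8. Among all genes tested, 2.31% were called higher and 2.93% lower. The lists were chosen with earlier results of these data known, so the counts are a description only.

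Between the lines that carry an introduced AHR, few genes were called. WT and SA differed in 12 of 14942 genes (0.0803%) and WT and SD in 105 of 14828 (0.708%). Of the 30 genes with the largest changes against V, 1 was called between WT and SA (MAGED4, a gene with shared reads) and 3 between WT and SD (AHR, MAGED4 and MMP2). The comparisons of SA and of SD with V use the same V libraries as the WT comparison, so their values are only set side by side. Against V, 7.17% of the genes tested were called for SA and 5.41% for SD. Relative to V, the log2 fold change of ANPEP was 2.00 for the WT line, 2.16 for SA and 2.32 for SD. For CPLX2 the log2 fold changes were -1.24, -1.10 and -1.40, and for NTS -2.11, -2.55 and -2.34. CDH1 had -0.60, -0.60 and -0.43, and VIM had 0.36, 0.34 and 0.26 on the same scale. Of the AHR targets, NQO1 had 0.21, 0.21 and 0.15, and CYP1B1 had 0.34, 0.38 and 0.34.

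The direct tests of WT against SD gave differences in both directions among the genes described above. CEACAM6, an adhesion protein of epithelial and tumor cells, fell from 63.8, 52.9 and 56.2 CPM in V to 38, 34.9 and 41.1 CPM in WT (-0.61, edgeR adjusted p = 1.5e-05), and at 18.1, 15.5 and 17.6 CPM the SD libraries were lower still (WT minus SD 1.15, edgeR adjusted p = 9.17e-07). MMP2 was higher in SD, at 25.3, 23.6 and 24.7 CPM, than in WT (-0.54, edgeR adjusted p = 0.0215). FOSL1, at 29.9, 30.1 and 29.7 CPM in SD, and AXL, at 384, 370 and 392 CPM in SD, were higher in WT (0.41, edgeR adjusted p = 0.0231, and 0.25, edgeR adjusted p = 0.0269). PTGS2, CXCL5 and FBN2 were lower in WT than in SD by 0.38, 0.41 and 0.50 on the log2 scale (edgeR adjusted p = 0.0103, 0.000482 and 0.00834). PAPPA, a protease that frees insulin-like growth factors, had 320 ± 15.5 CPM in V, 258 ± 9.98 CPM in WT and 369, 341 and 333 CPM in SD (WT minus SD -0.43, edgeR adjusted p = 9.76e-05). DIO2 had 22.5, 21.6 and 23.5 CPM in SD and was lower in WT (-0.54, edgeR adjusted p = 0.0231). Of these 10 genes, counting AHR, none was called between WT and SA. Also called between WT and SD, among the genes described above, were C3, COL5A2, HSPA2, KRT7, MAGED4, MAGED4B and ENSG00000283321. WT minus SD was -0.529 for C3, -0.434 for COL5A2, -0.345 for HSPA2 and 0.23 for KRT7 (edgeR adjusted p = 5.83e-05, 0.000982, 0.028 and 0.0309).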

How the data were processed

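RNA-seq was analysed for the A549 lines V and WT, with 3 libraries each, and the SA and SD libraries were used for scaling and side values. The authors deposited the expected count per gene and library, without normalization, and per the submitters' processing notes they used Trimmomatic 0.39, RSEM and edgeR on GRCh38 transcripts. Of 60623 gene identifiers, 60295 (99.5%) are in GENCODE release 44 on GRCh38, and the coordinates printed are those deposited. Between 3.24% and 3.52% of the values in the V and WT libraries were not whole, and no V or WT library copied another library of its own line.

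Expected counts were rounded and fitted in R 4.3.3 with edgeR 4.0.16 on the 6 V and WT libraries (filterByExpr with minimum count 10 and minimum total 15, TMM, quasi-likelihood test, two-sided), and p-values were adjusted by Benjamini-Hochberg over all 14772 genes. WT was tested against SA and SD in the same way. CPM use TMM factors of all 12 libraries and are given as mean ± standard deviation (s.d.) of 3. The fit was tested on simulated data. CPM are not divided by gene length, so levels are not compared between genes. A floor of 3 counts covers counting error only.

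The members and the 39 gene lists were chosen with earlier results of these data known. Genes named are AHR and genes that overlap it, its usual targets, PLK1, DIO2, CDH1, CDH2 and VIM, the 15 largest rises and 15 largest falls (called, a symbol, no overlap, at least 5 CPM), the 5 smallest adjusted p in each direction, and the called members of each list, up to 6 by adjusted p, with uncalled members given as values only. Promoter sequences are from RefSeq (GRCh38.p14), and a motif was counted on either strand of the 250 bases before a start.

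Alternatives were no count filter beyond 1 count, at least 10 counts in every library, DESeq2 1.42.0 size factors, DESeq2, edgeR's exact test, all 12 libraries in one fit, a replicate block, each library left out, a 1.5-fold minimum, AHR without the overlapping model and a longer motif. Not every member of the gene lists is reported here.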

Additional observations from a re-analysis of the deposited data

How the results depend on the processing

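The number of called genes in WT against V was 930 with no filter beyond 1 count, 900 with at least 10 counts in every library, 778 with DESeq2 size factors, 613 with DESeq2, 944 with edgeR's exact test and 603 with all 12 libraries in one fit, against 774. In none of these did a called gene change direction. With a minimum of 1.5-fold, 196 genes remained by construction, 65 higher and 131 lower. Leaving out 1 library gave 434 (without V replicate 1) to 720 (without V replicate 2) called genes, 185 to 334 higher and 249 to 386 lower, and 2.73 to 2.82 for the log2 fold change of the AHR locus, which was 1.95 for AHR alone. Of 163 called genes under the naming rule, 103 kept the call with every other count filter, scaling, test and set of libraries and with the replicate block, without regard to the 1.5-fold minimum. These 163 were named partly for large changes or small adjusted p, so their share does not describe all 774 called genes. Of the 774, 358 were not called without V replicate 1 and 330 were not called without WT replicate 3. Among the genes that were not called, leaving out 1 library moved PLK1 between -0.00546 and 0.0268 (-0.00264 without V replicate 1) and CDH2 between -0.0906 and 0.0381 (0.0107 without V replicate 2). The share of promoters with the motif was 4.53% for TNGCGTG and 31.9% for GCGTG.

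The replicate numbers do not pair the samples: the correlations of same-numbered V and WT libraries, as deviations from their group means, were -0.00506, -0.0389 and -0.00783, and not every library correlated best with its own number. A fit with the replicate number as a block called 507 genes, 203 higher and 304 lower, all among the 774. Depth limits genes near 3 counts, such as CYP1A1. Each line is 1 infection as far as the sources used here say, so differences between infections are not measured.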

Other observations

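Genes for ribosomal proteins were a group chosen after its values were seen and in no list above. Of 84 tested, 20 were called higher and none lower (5.24% of all genes tested were called), 81 had a positive log2 fold change, and the median was 0.119 against 0.0018 over all genes. Their summed level was 41200, 43200 and 41100 CPM in V and 44800, 44300 and 47100 CPM in WT, so the lines did not overlap, although V replicate 2 and WT replicate 2 were close. The count of calls was 4 without V replicate 1, 4 without WT replicate 3, 6 without V replicate 3 and 27 without V replicate 2 or WT replicate 2, and 5 when all 12 libraries were fitted together. Ribosomal protein genes have many processed copies that can share reads.

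Of the 15 tested genes and RNAs encoded by mitochondrial DNA, 7 were called lower in WT and none higher, with a median of -0.135. Over all genes tested, 2.93% were called lower and the median log2 fold change was 0.0018. MT-CO2, a subunit of cytochrome c oxidase, had 8390, 7120 and 7590 CPM in V and 6270, 6810 and 6090 CPM in WT (log2 fold change -0.27, SE 0.0447, edgeR adjusted p = 0.000182). MT-CYB, cytochrome b, had 6580, 5820 and 6480 CPM in V and 5410, 5640 and 5240 CPM in WT (-0.21, SE 0.0398, edgeR adjusted p = 0.000779, and 0.061 when all 12 libraries were fitted together). The lines did not overlap for either, and V replicate 1 was the highest library for both. The count was 3 without V replicate 1, 4 without WT replicate 3, 4 by DESeq2 and 1 when all 12 libraries were fitted together.

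The median log2 fold change per chromosome was between -0.0225 (chromosome 15) and 0.0355 (chromosome 2), and the share of tested genes called was between 2.93% (chromosome 18) and 8.67% (chromosome 21), against 5.24% of all genes tested. A gene model without a symbol, ENSG00000257767 (chr12:111753890-111791418), singled out after its value was seen, had 0.316 ± 0.547 CPM in V and 5.5 ± 0.435 CPM in WT (s.d., n = 3, edgeR adjusted p = 6.56e-06). Overlap of its exons with other gene models was not checked, so it is uncertain as a single gene.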
